A study of Mus musculus with 24 samples.

Results

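The FGF10 axis of lacrimal gland (LG) budding was followed through 10 genes of the 63862 listed in each deposited table: the ligands Fgf10, Fgf7 and Fgf1, the receptors Fgfr1 and Fgfr2, the feedback inhibitors Spry1, Spry2 and Spry4, and the ETS transcription factors Etv4 and Etv5. The genes were given by name, and all 10 were found in the files by their Ensembl identifiers. RNA sequencing was compared across 20 libraries from C57BL/6 mice, with 3 libraries each of embryonic LG at E17.5 and E19.5 (embryonic day), 3 of adult LG, and 11 of lacrimal gland stem cell (LGSC) spheres. The LGSC spheres were derived from the LG of mice 6 to 8 weeks old and taken at passage 2 after 5 days (2 libraries), 7, 10 or 14 days (3 libraries each) of Matrigel culture. Their serum-free medium held EGF, FGF10, Wnt3A and the ROCK inhibitor Y-27632, so that these cells received FGF10 as protein at every time point while the libraries measured their own transcripts. The age of the adult LG donors and the number of glands pooled in a library were not given in the labels. Since the labels do not say that libraries of a group came from separate animals or cultures, p-values measure only the spread between these libraries.

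FGF10 and FGF7 are secreted mainly by mesenchyme and bind the IIIb splice form of FGFR2 on the neighbouring epithelium, where the signal drives outgrowth and branching of the lacrimal bud. FGF1 binds FGF receptors broadly. FGFR1 is carried by mesenchymal as well as epithelial cells, and receptor activation runs through RAS and MAP kinase to switch on Etv4 and Etv5, which carry out much of the transcriptional response. The same signal induces the Sprouty genes Spry1, Spry2 and Spry4, whose proteins restrain it, so that both sets of genes are commonly read as a measure of FGF signaling.

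The comparisons addressed where ligand and receptor transcripts lay and whether the targets moved with Fgf10. Promoter sequence was examined for the genes that the comparisons turn on, Fgf10 as the ligand and Spry2 and Etv5 as the targets with the highest levels. Of the 10 genes, 6 had an entry in the RefSeq promoter table for GRCm38.p6, with 7 windows in all, and the 250 bases before each start were searched on both strands for the ETS-type letters CAGGAA and CCGGAA and the AP-1 letters TGANTCA. The 3 windows below belong to the ligand and to the 2 most abundant targets, are written 5′ to 3′ on the strand of the gene, and show a match in capitals.
Fgf10, chr13:118714449-118714698, plus strand: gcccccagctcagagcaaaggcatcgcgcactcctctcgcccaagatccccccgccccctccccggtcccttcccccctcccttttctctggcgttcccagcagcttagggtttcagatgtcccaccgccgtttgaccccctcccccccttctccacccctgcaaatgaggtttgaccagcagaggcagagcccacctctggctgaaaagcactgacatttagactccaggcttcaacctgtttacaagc
Spry2, chr14:105896820-105897069, minus strand: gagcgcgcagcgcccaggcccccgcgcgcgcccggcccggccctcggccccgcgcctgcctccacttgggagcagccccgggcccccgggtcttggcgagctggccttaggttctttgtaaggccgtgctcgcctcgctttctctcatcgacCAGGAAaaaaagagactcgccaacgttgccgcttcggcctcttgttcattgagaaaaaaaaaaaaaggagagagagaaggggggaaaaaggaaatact
Etv5, chr16:22438369-22438618, minus strand: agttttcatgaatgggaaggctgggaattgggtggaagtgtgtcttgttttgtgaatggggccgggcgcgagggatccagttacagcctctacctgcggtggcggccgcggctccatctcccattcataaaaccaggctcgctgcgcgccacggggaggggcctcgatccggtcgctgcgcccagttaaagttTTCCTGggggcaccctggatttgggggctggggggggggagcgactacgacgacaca
The Spry2 window held CAGGAA 98 bases before the start, and the Etv5 window held the same letters on the opposite strand 57 bases before the start. A match also stood 209 bases before the start of Fgfr2, while the windows of Fgf10, Fgf7, Spry1 and a second Etv5 start held none. Such matches are common: of 32851 mouse promoter windows of this length, 25.7% held CAGGAA, 12% held CCGGAA and 6.75% held TGANTCA, so that 3 of 7 windows describes these sequences and no binding.

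In GENCODE M21 (GRCm38), Fgf10 spans chromosome 13 from 118669791 to 118792115 and Fgf7 chromosome 2 from 126034658 to 126091185, both on the plus strand. Fgfr1 lies on chromosome 8 from 25513654 to 25575718 on the plus strand and Fgfr2 on chromosome 7 from 130162451 to 133123350 on the minus strand. Spry2 covers chromosome 14 from 105891947 to 105896819, Etv4 chromosome 11 from 101769742 to 101785371 and Etv5 chromosome 16 from 22381309 to 22439719, each on the minus strand. Exons of 4 members overlap those of another gene: Fgf10 with Gm16263, Fgfr1 with Gm16159 and Spry1 with Gm42922 on the other strand, and Fgfr2 with Ctbp2 on the same strand. The library kit was not stated to mark strand, and reads from Fgf10 and Gm16263 therefore cannot be told apart where they overlap. Gm16263 itself was listed at 1.86 to 3.65 FPKM in embryonic LG, at 0.26 FPKM or less in adult LG and at 0 in LGSC.

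The tables hold FPKM, fragment counts corrected for the length of the gene and the depth of the library, and the reads recovered from their steps amounted to 6434734 to 9258020 per library. Adult LG replicates 1 and 2 differed from replicate 3: their 10 most abundant genes took 60.4% and 59.6% of reads against 31.3%, and the chi-square per gene between them was 23, against 289 and 302 with replicate 3. The LGSC libraries numbered 2 also stood apart from those numbered 1 and 3 at days 7, 10 and 14 (57 to 107 against 15.2 to 30.1). Fibroblast genes separated the groups, as the summed FPKM of 12 markers was 4920 to 5900 in embryonic LG, 184 to 368 in adult LG and 0.633 to 5.65 in LGSC. Of the 7 acinar markers 3 exceeded 1 FPKM in adult LG, with a sum of 5470 to 16000 carried by Car6 (5460 to 15900 FPKM), and none did in embryonic LG. Basal markers summed to 2310 to 5840 in LGSC, most of it Krt17 (1580 to 5800 FPKM), and to at most 123 elsewhere, while the epithelial markers Epcam and Krt8 were listed at 0 in all 20 libraries. A value of 0 or near 0 in these tables is weak evidence: of 19 genes that every cell uses, a list chosen after the values were seen, 3 stayed under 1 FPKM in all 20 libraries (Gapdh, Eef1a1 and Polr2a), with Gapdh listed at 0 throughout. Low members are therefore given as listed levels, with their reads.

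Fgf10 was high in embryonic LG, low in adult LG and listed at or near 0 in LGSC. At E17.5 its level was 90.7, 69.8 and 42.9 FPKM in replicates 1, 2 and 3, a mean of 67.8 ± 24.0 (SD, n = 3), and at E19.5 it was 61.9, 37.8 and 37.3 FPKM, a mean of 45.7 ± 14.0 (SD, n = 3). In adult LG it was 1.53, 2.67 and 7.78 FPKM (17 to 273 reads), and the lowest embryonic library lay above the highest adult one. In 9 of the 11 LGSC libraries Fgf10 was listed at 0, and the other two held 0.06 and 0.03 FPKM, from 2 reads and 1 read. At this depth, 3 reads or fewer set the limit of detection, and Fgf10 transcripts were not detectable in LGSC above it.

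Fgf7, which shares its receptor with Fgf10, had a similar distribution. Its level was 13.9, 13.4 and 9.77 FPKM at E17.5, 12.4, 12.9 and 15.2 FPKM at E19.5, and 1.15, 1.55 and 5.01 FPKM in adult LG, so that embryonic and adult libraries did not overlap while the 2 embryonic stages did. LGSC libraries held 0 to 0.21 FPKM of Fgf7, from at most 6 reads. Fgf1 did not exceed 0.27 FPKM, or 7 reads, in any of the 20 libraries, and all neighbouring groups overlapped in its order of levels.

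**Figure D1:**
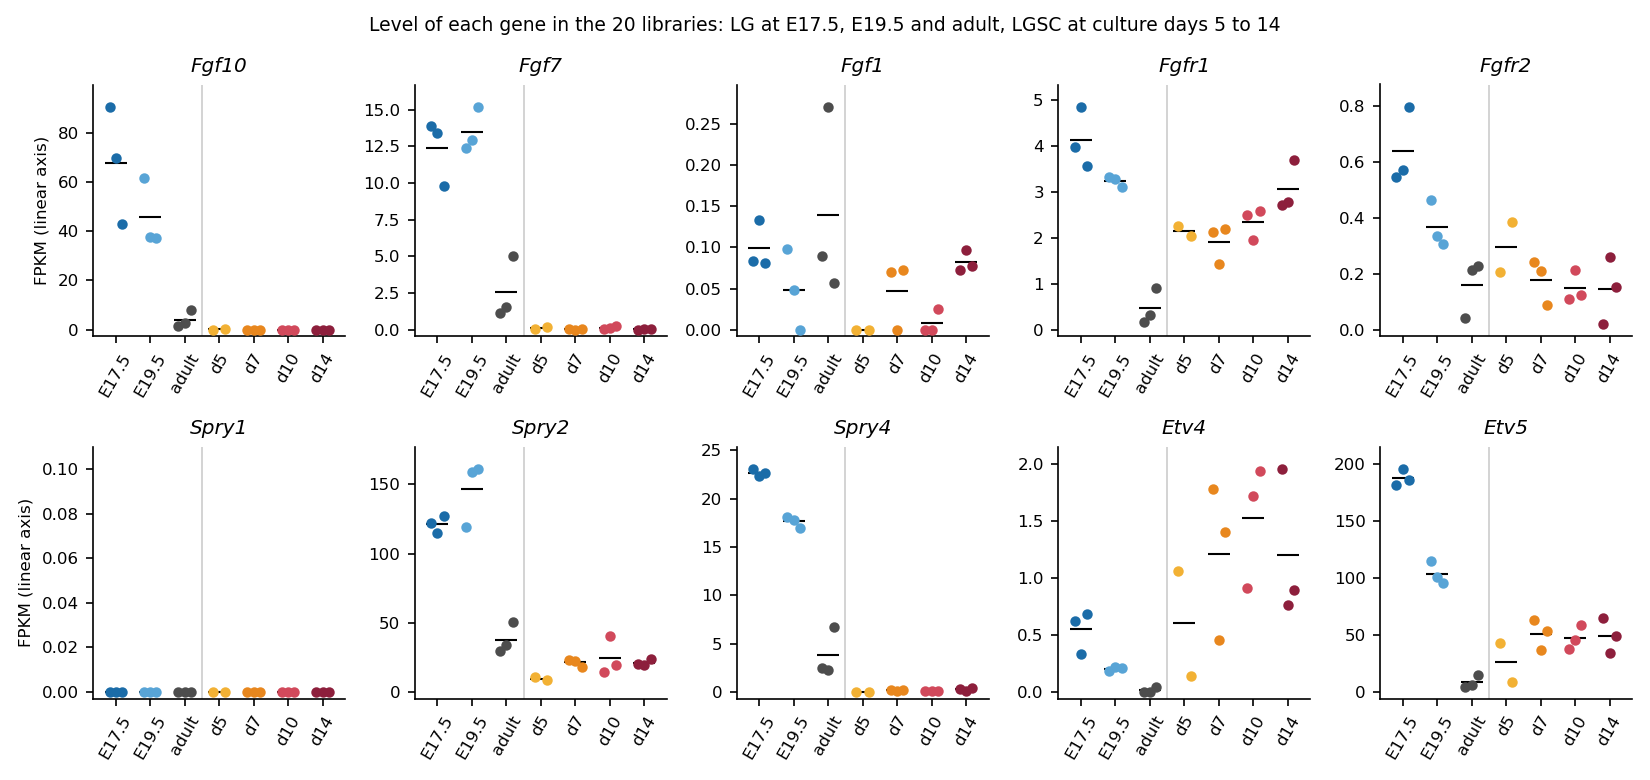
Level of each of the 10 genes in FPKM on linear axes, with 1 point per library, a bar at each group mean, LG groups to the left and LGSC days to the right of the grey line. Fgf10, Fgf7, Spry4 and Etv5 are high in embryonic LG, Etv4 is highest in LGSC, and Spry1 is listed at 0 in all 20 libraries.

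The receptors were listed at low levels in all groups, and their order differed from that of the ligands. Fgfr1 was 3.97, 4.85 and 3.57 FPKM at E17.5, 3.32, 3.29 and 3.11 FPKM at E19.5, and 0.17, 0.32 and 0.92 FPKM in adult LG, which rests on 4 to 69 reads. LGSC libraries held 1.42 to 3.70 FPKM with a median of 2.25, and all 11 exceeded every adult library. The day 14 LGSC libraries, at 2.70 to 3.70 FPKM, overlapped E19.5 LG. Thus Fgfr1 was present in LGSC spheres, where Fgf10 was not detectable and Fgf7 and Fgf1 rested on at most 6 and 5 reads per library. Of 19 other FGF genes, a list that holds intracellular FGF homologs beside secreted ligands, 5 reached the mean required for testing in LGSC.

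Fgfr2, the main receptor for FGF10, stayed under 1 FPKM in all 20 libraries. It was 0.55, 0.57 and 0.80 FPKM at E17.5, 0.47, 0.33 and 0.31 FPKM at E19.5, 0.04, 0.21 and 0.23 FPKM in adult LG, and 0.02 to 0.39 FPKM in LGSC, from 1 to 66 reads per library. E17.5 exceeded E19.5 and E19.5 exceeded adult LG with no overlap, whereas adult LG and each LGSC day overlapped. The IIIb form that binds FGF10 and the IIIc form share 1 value in these gene-level tables. Of the other receptors, Fgfr3 was 1.19 to 3.07 FPKM at E17.5, 1.27 to 1.8 at E19.5 and 1.51 to 4.21 in adult LG. In LGSC, Fgfr3 split by replicate number, at 2.73 to 5.13 FPKM in the 4 libraries numbered 2 and at 0.21 to 0.52 FPKM in the other 7. Fgfr4 was 1.20, 4.69 and 1.55 FPKM at E17.5 and at most 0.97 FPKM in any other library. The high library, E17.5 replicate 2, also had the highest summed FPKM of 8 skeletal muscle markers, 46.3 against 21 to 29.3 in the other two E17.5 libraries, and the part of these cells in the Fgfr4 level was not tested. The decoy receptor Fgfrl1 did not exceed 0.83 FPKM in these 20 libraries.

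Among the feedback inhibitors, Spry2 was abundant in every group and highest in embryonic LG. It was 122, 115 and 127 FPKM at E17.5, 119, 159 and 161 FPKM at E19.5, and 29.6, 33.7 and 50.1 FPKM in adult LG. In LGSC the lowest value was 8.20, the median 19.46 and the highest 40.5 FPKM, and the day 10 range overlapped adult LG. Spry4 separated the groups more sharply: 23.1, 22.3 and 22.6 FPKM at E17.5, 18.1, 17.8 and 17.0 FPKM at E19.5, and 2.44, 2.27 and 6.69 FPKM in adult LG, with no overlap at any step. LGSC held 0 to 0.39 FPKM of Spry4, from at most 16 reads. Thus 2 inhibitors of the same family differed in LGSC, as Spry2 was measured at 116 to 652 reads per library while Spry4 was close to the limit of detection. Spry1 was listed at 0 in all 20 libraries.

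Etv5 was the most abundant member at E17.5 and in LGSC, and the only member above 30 FPKM both in embryonic LG and in most LGSC libraries. It was 182, 195 and 185 FPKM at E17.5, 115, 101 and 95.2 FPKM at E19.5, and 3.84, 6.38 and 14.3 FPKM in adult LG. In LGSC its lowest value was 8.95, its median 45.0 and its highest 64.8 FPKM, and 10 of the 11 libraries, all but day 5 replicate 2, exceeded every adult library. Etv4, its close relative, had a different order, highest in LGSC, where it was 0.14 to 1.95 FPKM with a median of 1.06 (3 to 54 reads). It was 0.62, 0.33 and 0.68 FPKM at E17.5, 0.18, 0.21 and 0.21 FPKM at E19.5, and was listed at 0, 0 and 0.04 FPKM in adult LG. Neither factor was therefore lowest where Fgf10 was lowest: both were at their lowest group mean in adult LG, and Fgf10 in LGSC.

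Embryonic LG was compared with adult LG with limma on log2(FPKM + 1), in a fit over the 9 tissue libraries, where 6 members reached the mean of 0.5 FPKM required for testing. At E17.5 all 6 tested members were higher than in adult LG, while 29.1% of the 18578 genes tested were called higher and 24.9% lower. Fgf10 differed by 3.92 (SE 0.47, adjusted p = 0.00017), and the ratio of mean FPKM was 17.0. Fgf7 differed by 2.04 (SE 0.35, adjusted p = 0.00136), or 4.81-fold. Both ligands were therefore higher before birth by more than the spread between libraries. Fgfr1 rose by 1.83 (SE 0.20, adjusted p = 9.96e-05), or 8.83-fold in mean FPKM, from low adult read numbers. The targets were higher as well, Etv5 by 4.53 (SE 0.36, adjusted p = 1.84e-05; 22.9-fold), Spry4 by 2.42 (SE 0.30, adjusted p = 0.0002; 5.97-fold) and Spry2 by 1.69 (SE 0.21, adjusted p = 0.000245; 3.21-fold). The median difference of the 6 was 2.23, beside 0.053 over all genes tested. Without adult replicate 3, the highest adult library in all 6, the ratios were 32.2 for Fgf10, 9.14 for Fgf7, 17.0 for Fgfr1, 36.7 for Etv5, 9.63 for Spry4 and 3.83 for Spry2. Of the 6, Fgfr1 averaged under 0.5 FPKM in adult LG and entered the fit through the embryonic libraries. Fgf1, Fgfr2, Spry1 and Etv4 fell short of the mean and were not tested. When the filter on low FPKM was dropped, Etv4 (0.60, adjusted p = 0.00214) and Fgfr2 (0.50, 0.0143) were called higher at E17.5, on 1 to 66 reads of Fgfr2 per library, and neither was called at E19.5 (0.102 and 0.183).

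At E19.5 the same 6 members were again higher than in adult LG, against a background of 30.3% of genes called higher and 23.9% lower. This comparison uses the same adult libraries, so the low adult values count once for both stages. The differences were 3.39 for Fgf10 (adjusted p = 0.000419), 2.17 for Fgf7 (0.00104), 1.56 for Fgfr1 (0.000262), 1.95 for Spry2 (0.000126), 2.08 for Spry4 (0.000504) and 3.67 for Etv5 (6.26e-05), each on the log2(FPKM + 1) scale. Their median was 2.12 beside 0.089 over all genes. The ratio of mean FPKM was 11.4 for Fgf10, 12.7 for Etv5 and 3.87 for Spry2, or 21.7, 20.3 and 4.62 without adult replicate 3. Without adult replicate 3 the differences between E17.5 and adult LG were 1.91 to 4.98, and all 6 were called at both stages. With replicate 3 as the only adult library they were 1.14 to 3.62, in a fit that takes the spread from the embryonic libraries and assumes that the lone adult library varies as they do.

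**Figure D2:**
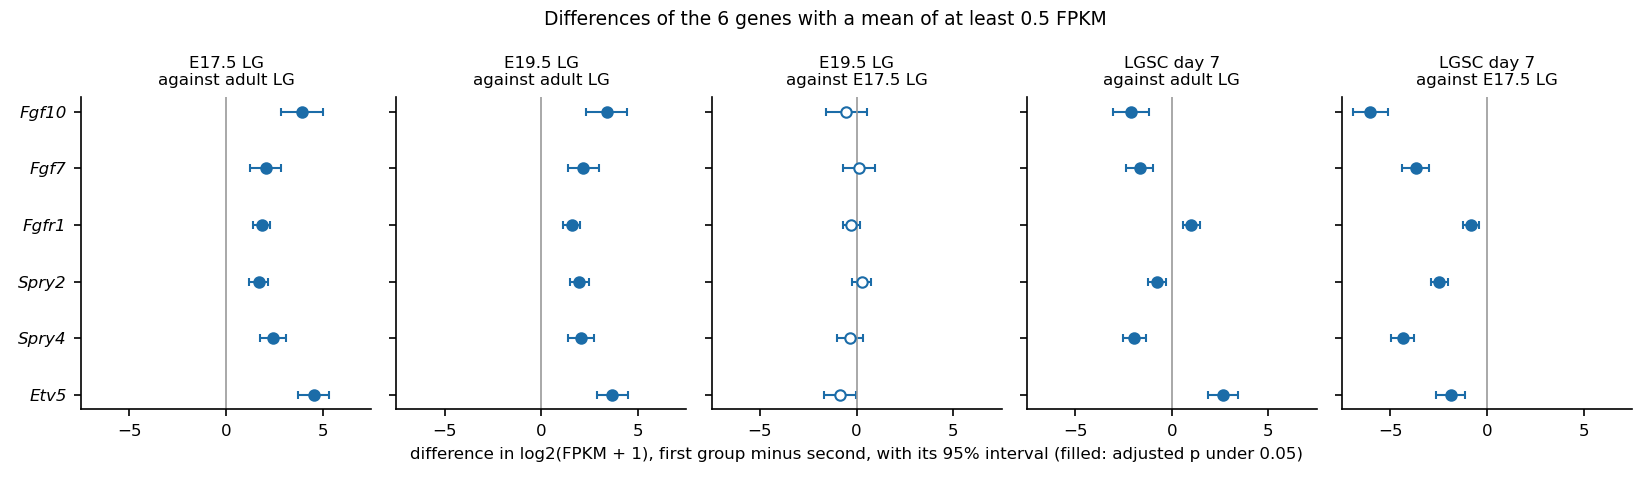
Difference in log2(FPKM + 1) of the 6 tested members in 5 comparisons, first group minus second, with the 95% interval as a bar and filled points where the adjusted p was under 0.05. All 6 are higher in E17.5 and E19.5 LG than in adult LG, none is called between the embryonic stages, and in day 7 LGSC Fgfr1 and Etv5 are above and the other 4 below adult LG.

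Several measured quantities moved with this contrast. The 12 fibroblast markers summed to 4930 to 5790 FPKM at E17.5 and to 184 to 368 FPKM in adult LG, where 8 of the 10 tested were higher at E17.5 and none lower. Col1a1 and Col3a1 made up most of the embryonic sum, and Pdgfrb and Fbn1 were at or near 0 in all 20 libraries. Of the markers of other cell types, 5 of 6 epithelial, 3 of 3 acinar and 4 of 4 leukocyte genes tested were lower at E17.5 than in adult LG, and 3 of 5 muscle genes were higher. The filter sets part of these counts. Acinar markers summed to at most 0.708 FPKM in embryonic LG and passed it through the adult libraries. Col1a2, Twist2 and the muscle marker Myh3 did not exceed 0.422 FPKM in adult LG and passed it through the embryonic libraries. Within adult LG, replicate 3 had the highest Fgf10, Fgf7, Fgfr1, Spry2, Spry4 and Etv5. It also had the highest sum of every marker list, among them fibroblast (368 FPKM), epithelial (1820 FPKM), acinar (16000 FPKM) and endothelial (210 FPKM) markers. Its shared rank with these members is thus not particular to fibroblast markers. In whole glands, fewer cells of a type and less RNA per cell cannot be told apart, and the part of these cell types in the differences was not tested. Scaling all libraries to recovered reads moved the median of all genes by 0.51 at E17.5 and 0.43 at E19.5. Under that scaling the share of calls that were higher was 79.7% in place of 53.8% at E17.5 and 79.4% in place of 55.9% at E19.5, and the 6 members were called in the same direction, by 1.45 to 4.74 (E17.5) and 1.14 to 3.82 (E19.5) above the median gene.

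**Figure D3:**
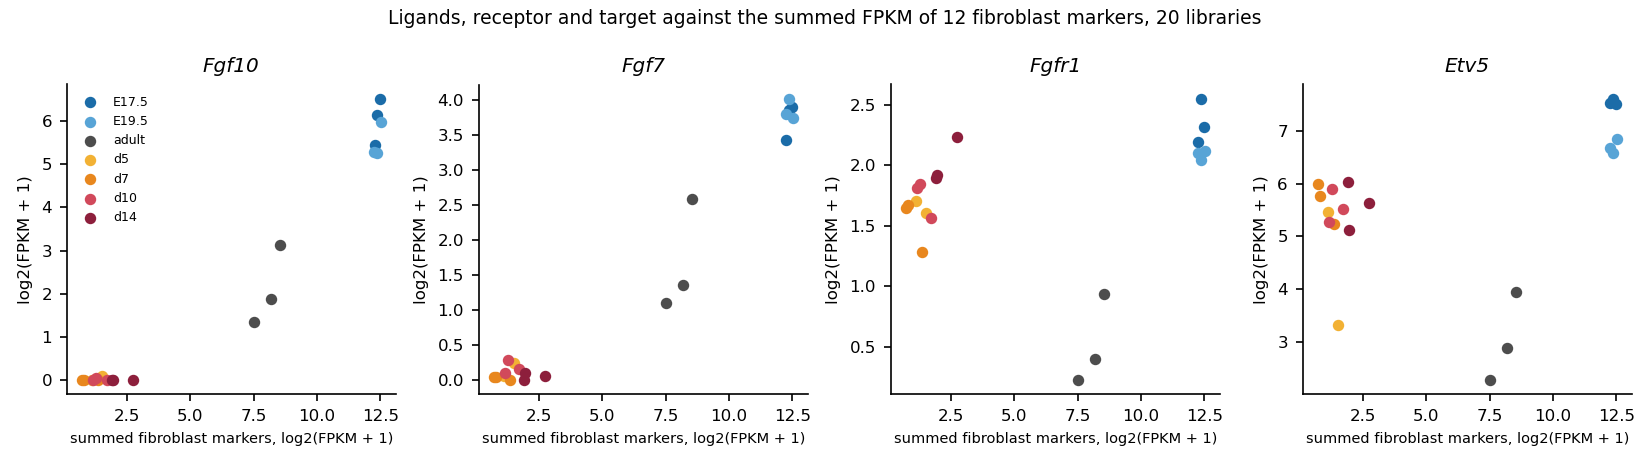
Fgf10, Fgf7, Fgfr1 and Etv5 against the summed FPKM of 12 fibroblast markers, both as log2(FPKM + 1), with 1 point per library. Fgf10 and Fgf7 are lowest in LGSC, higher in adult LG and highest in embryonic LG, as the marker sum is, while Fgfr1 and most Etv5 points of LGSC lie above adult LG at a far lower marker sum.

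The genes around these members were counted from lists of the pathway. Over all genes tested, 29.1% were called higher and 24.9% lower at E17.5 than in adult LG, and 30.3% and 23.9% at E19.5. Of 19 other FGF genes, which include intracellular homologs as well as secreted ligands, 12 fell short of the filter and were not tested. Of the 7 tested, 4 (Fgf9, Fgf12, Fgf13 and Fgf17) averaged under 0.5 FPKM in adult LG and passed through the embryonic libraries, so that a count of higher genes among them is set in part by the filter. All 7 were higher at E17.5 than in adult LG, led by Fgf18 (3.13, adjusted p = 0.000137), the intracellular FGF homologs Fgf13 (2.37, 2.35e-05) and Fgf11 (1.81, 0.000362), and all 7 were also higher at E19.5. Among 3 other receptors 1 was higher at E17.5, Fgfr4 (1.47, adjusted p = 0.00516), and none at E19.5. Fgfr4 averaged 0.15 FPKM in adult LG, on at most 9 reads per library, and entered the fit through the embryonic libraries. The filter thus sets part of this call. Of 10 other feedback or target genes, 4 rose and 2 fell at E17.5, while 5 rose and 2 fell at E19.5. The filter sets part of these counts, as 1 of the 10 averaged under 0.5 FPKM in adult LG and 1 at each embryonic stage. Flrt3, which encodes a membrane protein that binds FGF receptors, was higher at E17.5 by 3.82 (adjusted p = 8.38e-07) and the ERK phosphatase Dusp6 by 2.23 (0.000712), whereas Dusp5, another ERK phosphatase, fell by 2.82 on the log2 scale (0.000114). Etv1, the remaining member of the ETS subfamily of Etv4 and Etv5, ran the other way: it was 2.34, 1.76 and 0.40 FPKM in adult LG and at most 0.12 FPKM in embryonic LG, a difference of -1.18 at E17.5 (adjusted p = 0.00755). Etv1 passed the filter through the adult libraries, where it is high, so the filter sets part of this call. Spred1, Spred2 and Il17rd, further inhibitors of the pathway, did not exceed 0.43 FPKM in any of the 20 libraries.

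Heparan sulfate, which FGF ligands need to engage their receptors, was represented by 13 tested genes, of which 9 were higher and 1 lower at each embryonic stage. Of the 13, 1 averaged under 0.5 FPKM in adult LG and passed the filter through the embryonic libraries. The proteoglycan genes Gpc3 (7.49 at E17.5, adjusted p = 5.41e-07) and Gpc6 (5.40, 3.83e-06) and the sulfotransferase gene Hs6st2 (3.05, 6.46e-06) differed most. Of 15 relay genes between receptor and MAP kinase, 5 rose and 1 fell at E17.5, while 4 rose and 1 fell at E19.5, with Nras up (1.69, adjusted p = 3.18e-05) and Map2k2 down (-0.99, 0.0104) at E17.5. These counts of higher relay genes were near the shares over all genes, 29.1% at E17.5 and 30.3% at E19.5, and are not read as a result about the pathway. Of 6 tested gland budding regulators 3 were higher and 2 lower at each stage, among them the homeobox gene Alx4 up (4.07, 6.44e-05) and Bmp4 down (-2.19, 0.00549) at E17.5. The list medians at E17.5 were 1.81 for the other FGF genes, 1.88 for heparan sulfate genes, 0.34 for the relay and 0.55 for the budding regulators.

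Between E19.5 and E17.5, none of the 6 tested members was called, where 1.11% of genes were called higher and 0.624% lower at E19.5. Fgf10 differed by -0.54 (95% interval -1.60 to 0.53, adjusted p = 0.685), an interval that includes both no change and a fall to a level well under that of E17.5. Etv5 differed by -0.85 (95% interval -1.67 to -0.04), with adjusted p = 0.301, and was the 1 member with an unadjusted p under 0.05. Spry4 differed by -0.35 (adjusted p = 0.679), Fgfr1 by -0.27 (0.609), Spry2 by 0.26 (0.667) and Fgf7 by 0.13 (0.948). In 5 of the 10 members, Fgfr1, Fgfr2, Spry4, Etv4 and Etv5, every E19.5 library lay below every E17.5 library, which for the 3 of these that were tested compares with 15.3% of all genes tested.

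These calls changed with the adult libraries in the fit. With only the 2 embryonic groups in the fit, Etv5 (-0.85, adjusted p = 0.00486) and Spry4 (-0.35, 0.0249) were lower at E19.5, and 2144 genes were called in place of 323. The same 2 members were called without adult replicate 3 (adjusted p = 0.0195 and 0.0291, with 1736 genes called). Fgf10 was not called in these fits, with an adjusted p of 0.332 without adult replicate 3. No gene in the lists of other FGF, receptor, feedback, relay, heparan sulfate and budding genes was called between the stages. Scaling to recovered reads changed the split of calls from 207 higher and 116 lower to 83 higher and 87 lower.

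Whether targets followed Fgf10 was examined across the 6 embryonic libraries, in which Fgf10 ranged from 37.3 to 90.7 FPKM. Exact permutation tests were two-sided over all pairings, with adjustment over the 4 relations that could be computed, as Spry1 was at 0. Spry2 gave a negative coefficient, Pearson's r = -0.81 (exact permutation p = 0.0306, adjusted 0.122) and Spearman's rho = -0.83 (exact permutation p = 0.0583, adjusted 0.117). Spry4 gave r = 0.63 (exact permutation p = 0.114, adjusted 0.159) and rho = 0.83 (0.0583, adjusted 0.117). For Etv5, r was 0.64 (exact permutation p = 0.119, adjusted 0.159) and rho 0.71 (0.136, adjusted 0.181), and for Etv4, r was 0.36 (exact permutation p = 0.394, adjusted 0.394) and rho 0.37 (0.497, adjusted 0.497). None of the 4 relations passed the threshold after adjustment.

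The libraries form 2 stages, and Spry4 and Etv5 did not overlap between them. Without E17.5 replicates 1 and 2, the libraries farthest from the median of Fgf10, r over the remaining 4 was 0.08 for Spry4, 0.17 for Etv5, -0.13 for Etv4 and -0.87 for Spry2, so that Pearson's r for Spry4 and Etv5 rested on those 2 libraries. Spearman's rho over the same 4 was 0.80 for Spry4 and for Etv5, -0.20 for Etv4 and -1.0 for Spry2, where the smallest exact permutation p that 4 libraries allow is 0.0833. Within E17.5, Fgf10 was 90.7, 69.8 and 42.9 FPKM in replicates 1, 2 and 3, while in the same libraries Etv5 was 182, 195 and 185 FPKM and Spry4 23.1, 22.3 and 22.6 FPKM, so that both targets stayed within a narrow range while Fgf10 did not. Within E19.5, the library with the highest Fgf10 (61.9 FPKM) had the highest Etv5 (115 FPKM) and Spry4 (18.1 FPKM) and the lowest Spry2 (119 FPKM). With 3 libraries per stage no test within a stage was made. In adult LG, replicate 3 was highest in Fgf10 and in Spry2, Spry4 and Etv5. That library was also highest in the sum of every marker list, so this shared rank is not read as targets following Fgf10. In LGSC the relation was not computed, since Fgf10 was at 0 in 9 of 11 libraries.

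**Figure D4:**
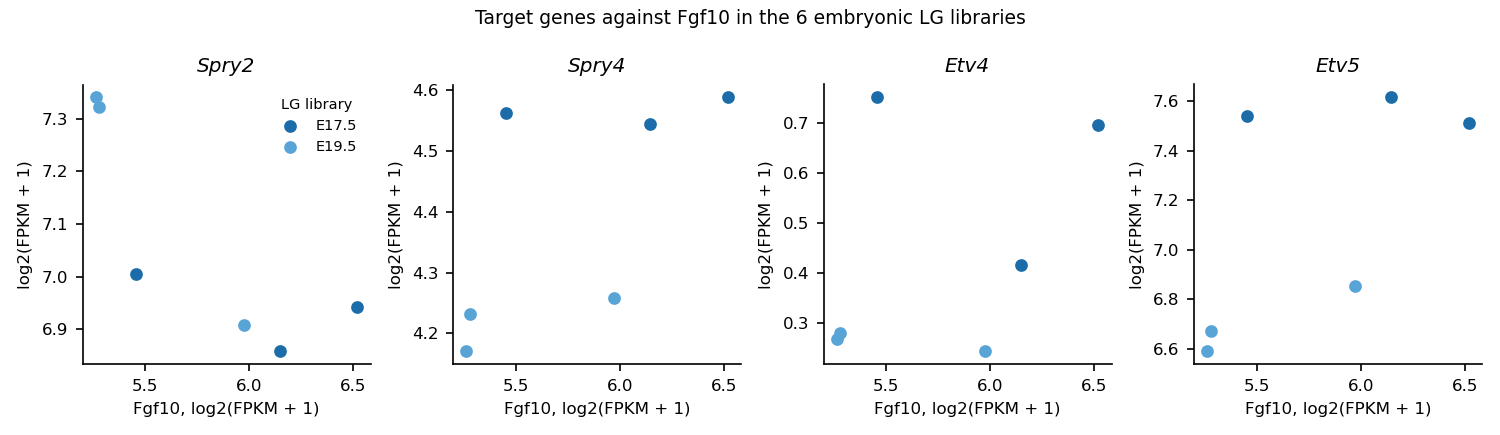
Spry2, Spry4, Etv4 and Etv5 against Fgf10 in the 6 embryonic LG libraries, as log2(FPKM + 1), with the stage shown by colour. Spry4 and Etv5 separate by stage at any level of Fgf10, and the 2 libraries with the least Fgf10, both at E19.5, have the highest Spry2.

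Over the 7 group means of log2(FPKM + 1), given as a description, Pearson's r with Fgf10 was 0.995 for Fgf7 and for Spry4, 0.951 for Spry2, 0.832 for Fgfr2, 0.571 for Etv5, 0.415 for Fgf1, 0.370 for Fgfr1 and -0.588 for Etv4. The points share libraries and fall into embryonic, adult and culture clusters. Among 10659 other genes averaging 1 FPKM or more, the 5 with the most similar means were Adam23 (r = 0.9999), Hpca (0.9998), Dchs1 (0.9997), Alx4 (0.9996) and Barx1 (0.9996). Alx4, one of the listed budding regulators, had mean levels of 69.4 FPKM at E17.5, 39.9 at E19.5 and 3.89 in adult LG, close to the levels of Fgf10. The genes most similar to Fgfr2 were Nek1 (r = 0.9964), 4930473A02Rik (0.9902), Zer1 (0.9882), Opn1sw (0.9784) and Psph (0.977), on Fgfr2 levels that rest on few reads.

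In LGSC spheres the 4 members that could be tested, Fgfr1, Spry2, Etv4 and Etv5, showed no called slope over days 5 to 14, where 0.648% of 15584 genes were called rising and 1.5% falling. Fgfr1 gave 0.05 per day (95% interval 0.01 to 0.09, adjusted p = 0.181) and was the 1 member with an unadjusted p under 0.05. Spry2 gave 0.08 per day (adjusted p = 0.355), Etv5 0.08 (0.485) and Etv4 0.04 (0.617). Scaling to recovered reads changed the split of calls from 101 rising and 233 falling to 111 and 160, and with the replicate number as a block 783 genes were called in place of 334, again without a member. In the other FGF lists 1 gene was called, the heparan sulfate sulfotransferase gene Hs3st1 (0.15 per day, adjusted p = 0.0491).

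Day 5 stood below the later days in Spry2 and, in listed values only, in Spry4, a comparison made after the values were seen. Spry2 was 10.6 and 8.20 FPKM at day 5 and 14.4 to 40.5 FPKM in the 9 later libraries. Spry4 was listed at 0 in both day 5 libraries and at 0.05 to 0.39 FPKM in all 9 later ones, from 2 to 16 reads. The lowest of these lies within the limit of detection of 3 reads, so the separation of Spry4 is not established. Dusp6, the ERK phosphatase that FGF signaling also induces, was 5.18 and 2.92 FPKM at day 5 and 13.0 to 85.3 FPKM later, with a slope of 0.28 per day (adjusted p = 0.124). Of all genes tested in culture, 2.81% had both day 5 libraries below the other 9. That share covers Spry2 and Dusp6 but not Spry4, which averaged 0.131 FPKM in LGSC and was not tested. Fgfr1 and Etv4, which were tested, did not separate. Etv5 did not separate in this way, as it was 43.2 and 8.95 FPKM at day 5 and 33.6 to 64.8 FPKM later. The low value came from day 5 replicate 2, which was also lowest in Etv4 at 0.14 FPKM, and with 2 libraries the day 5 level of both factors remains uncertain.

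Between day 7 and day 14 no member was called, and 0% of 15744 genes were called higher and 0% lower with limma, with 1557 genes at an unadjusted p under 0.05. limma-voom on the recovered reads also called 0 genes. Fgfr1 was 2.12, 1.42 and 2.18 FPKM at day 7 and 2.70, 2.78 and 3.70 FPKM at day 14, a difference of 0.48 (95% interval 0.02 to 0.94, adjusted p = 0.493) in which the ranges did not overlap. Spry2 differed by -0.01 (95% interval -0.40 to 0.38), Etv4 by 0.01 (-0.77 to 0.78) and Etv5 by -0.08 (-0.80 to 0.65). These intervals are narrowest for Spry2 and leave room for wider changes of the ETS factors in either direction. They come from a fit without the replicate number. With it as a block in limma, the adjusted p was 0.368 for Fgfr1, 0.983 for Spry2, 0.99 for Etv4 and 0.83 for Etv5. Leaving out the libraries numbered 2 changed no call in either culture comparison.

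Day 7 LGSC spheres were set against adult LG, the tissue from which they were derived, in a fit of 12 libraries. Of the 6 tested members 2 were higher and 4 lower, where 20.6% of 18645 genes were called higher and 27.4% lower. Etv5 was higher by 2.64 (SE 0.35, adjusted p = 0.000113), at 62.9, 36.7 and 53.7 FPKM against 3.84, 6.38 and 14.3 FPKM, or 6.25-fold in mean FPKM. Fgfr1 was higher by 1.01 (SE 0.20, adjusted p = 0.00149), or 4.08-fold. Fgfr1 averaged 0.468 FPKM in adult LG, on 4 to 69 reads, and entered the fit through the other libraries, so the filter sets part of its call. A receptor and a target gene were thus higher in the spheres, while both ligands were lower. Fgf10 fell by 2.12 on the log2 scale (SE 0.42, adjusted p = 0.0017), with 0 reads in all 3 day 7 libraries, and Fgf7 fell by 1.65 (SE 0.32, adjusted p = 0.00146), while Spry4 fell by 1.95 (SE 0.27, adjusted p = 0.000149), from a mean of 3.80 FPKM to 0.149 FPKM on 4 to 7 reads per library. These 3 genes averaged under 0.5 FPKM in day 7 LGSC and entered the fit through the tissue libraries, and their values depend on the pseudocount: with 0.1 they were -5.04 for Fgf10, -4.18 for Fgf7 and -3.80 for Spry4.

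Spry2 fell by 0.77 on the log2 scale between adult LG and day 7 LGSC (SE 0.20, adjusted p = 0.0091), from 29.6 to 50.1 FPKM to 18.2 to 23.1 FPKM. This call depended on the processing: scaled to recovered reads, the difference was 0.30 (adjusted p = 0.542), or -0.16 relative to the median gene, and with only the 2 groups in the fit the adjusted p was 0.059. That scaling moved the median of all genes by 0.50 and the share of higher calls from 42.9% to 74.5%, and the other 5 members kept their calls. Etv4 was not tested in this fit, at 1.77, 0.45 and 1.40 FPKM in day 7 LGSC and 0, 0 and 0.04 FPKM in adult LG, and was called higher when the filter on low FPKM was dropped (adjusted p = 0.00332). Without adult replicate 3, Etv5 differed by 3.09 and Fgfr1 by 1.22, and the ratios of mean FPKM were 10.0 and 7.84. With it as the only adult library they differed by 1.73 and 0.59, where the other groups supply the spread. Without LGSC replicate 2 the values were 2.85 for Etv5 and 1.14 for Fgfr1. Marker sums changed along with these members: acinar markers, nearly all Car6, were at 5470 to 16000 FPKM in adult LG and at most 0.375 FPKM in day 7 LGSC, and fibroblast markers at 184 to 368 and 0.633 to 1.59 FPKM. Basal markers went from 39.0 to 123 FPKM up to 2550 to 4180 FPKM, of which Krt17 made 2520 to 4120 FPKM, while Krt14 did not exceed 17.8 and Krt5 2.16 FPKM at day 7. All 4 endothelial and all 4 leukocyte markers tested were lower in day 7 LGSC. There Cdh5, Tek, Emcn and Tie1 did not exceed 0.156 FPKM, and Ptprc and Csf1r 0.0489 FPKM. These genes passed the filter through the tissue libraries, so it sets part of these counts. The part of these cell types was not tested.

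Around the members, 2 of 7 other FGF genes tested were higher in day 7 LGSC than in adult LG, the intracellular homolog Fgf13 (0.63, adjusted p = 0.0434) and Fgf17 (0.46, 0.0249), and 5 were not called. Of the 19 listed, 12 were not tested. Fgf17 averaged under 0.5 FPKM in both groups and Fgf13 in adult LG, so these 2 calls rest on low values. Over all genes tested, 20.6% were called higher and 27.4% lower. Of 9 other feedback or target genes 3 were higher and 4 lower. The members of this list that moved most were the immediate early gene Egr1 (-3.88, 8.2e-06), Flrt3 (3.82, 4.9e-05) and the AP-1 gene Fosl1 (3.63, 7.4e-05), while Dusp6 was not called (-0.29, 0.491). Of 15 relay genes 9 were higher and none lower, led by Nras (2.31, 4.01e-07) and Hras (1.34, 0.00108). Heparan sulfate genes were higher in 10 of 14 and lower in 1, with Gpc4 (2.59, 2.51e-05), the sulfatase gene Sulf2 (2.35, 8.3e-05) and Gpc6 (2.07, 0.0026) in front. Of these 14, 2 averaged under 0.5 FPKM in adult LG and 1 in day 7 LGSC, as did 1 of the 9 other feedback or target genes in adult LG. The filter thus sets part of these counts. Of 16 budding regulators 10 were not tested, and 3 of the 6 tested averaged under 0.5 FPKM in day 7 LGSC, Alx4 among them. These 3 entered the fit through the tissue libraries, so the filter sets part of the count of lower genes. That count was 4 of 6, with Bmp4 (-3.67, 6.69e-05), Barx2 (-2.75, 0.000201) and Alx4 (-2.03, 0.000925) falling most. Neither of 2 other receptors tested was called.

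Against E17.5 LG, with the same day 7 libraries, all 6 tested members were lower in LGSC, where 13.8% of genes were called higher and 24.7% lower. Of the 6, Fgf10, Fgf7 and Spry4 averaged under 0.5 FPKM in day 7 LGSC and entered the fit through the tissue libraries. The filter thus sets part of this count and of the median over the 6. Fgf10 fell by 6.04 (SE 0.42, adjusted p = 1.07e-06), Fgf7 by 3.69 (SE 0.32, 5.51e-06) while Spry4 fell by 4.37 (SE 0.27, 4.09e-07) and was 152 times as high at E17.5 in mean FPKM. With a pseudocount of 0.1 these values were -9.34, -6.66 and -6.52, as LGSC held 0 or few reads of the 3 genes. Smaller differences were found for Spry2, which fell by 2.46 (SE 0.20, adjusted p = 3.91e-06; 5.70-fold), Etv5, by 1.89 (SE 0.35, 0.00138; 3.67-fold), and Fgfr1, by 0.82 (SE 0.20, 0.0065; 2.16-fold). The median over the 6 was -3.08 beside -0.096 over all genes. Fgfr1 lost its call with a pseudocount of 0.1 (-1.09, adjusted p = 0.0551). Without the filter Fgfr2 was called lower in LGSC (-0.48, adjusted p = 0.0106). Etv4 was not tested and its ranges overlapped, at 0.45 to 1.77 FPKM in day 7 LGSC and 0.33 to 0.68 FPKM at E17.5.

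The 7 other FGF genes tested, of 19, were lower in the same comparison, but 3 of them, Fgf9, Fgf12 and Fgf17, averaged under 0.5 FPKM in day 7 LGSC and entered the fit through the tissue libraries. The widest differences were those of Fgf18 (-3.23, adjusted p = 4.89e-05), Fgf11 (-2.05, 8.68e-05) and Fgf12 (-1.81, 2.3e-06). Of 2 other receptors 1 was lower, Fgfr4 (-1.57, 0.00173), which also averaged under 0.5 FPKM in day 7 LGSC. Of 9 other feedback or target genes 4 were lower and 2 higher, with Egr1 (-5.39, 7.59e-07) and Fos (-4.13, 8.09e-06) down, Fosl1 (3.37, 0.000153) up, and Dusp6 lower by -2.53 (0.00012). Heparan sulfate genes were lower in 7 of 14 and higher in 4, relay genes higher in 5 of 15 and lower in 1, and budding regulators lower in 4 of 6 and higher in 2. Over all genes tested, 13.8% were called higher and 24.7% lower. Of the 6 budding regulators, 3 averaged under 0.5 FPKM in day 7 LGSC and entered through the tissue libraries, so the filter sets part of that count. Among the 14 heparan sulfate genes 1 averaged under 0.5 FPKM in day 7 LGSC and 1 at E17.5. Gpc3 (-8.65, 4.53e-09) and Alx4 (-6.10, 3.48e-07) had the widest differences in these lists. All 9 fibroblast and all 4 endothelial markers tested were lower as well. In day 7 LGSC the fibroblast markers summed to at most 1.59 FPKM and the endothelial markers to at most 0.357 FPKM. They entered the fit largely through the tissue libraries, so the filter sets part of these counts. The part of these cell types in the lower ligand levels was not tested.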

How the data were processed

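Total RNA of LG and LGSC was purified with poly-T beads and sequenced by the authors from NEBNext Ultra libraries as paired-end reads. The submitters' processing notes name CASAVA 1.8, HISAT2 2.0.5, featureCounts 1.5.0-p3 and the build NCBIM37. Each deposited table holds 1 value per gene for a single library, read here as FPKM from its size and steps, since the step that made it is not given in the sources used here. Of 24 samples listed, 3 were not analysed here: day 5 LGSC replicate 3 and the libraries of passages 6 and 20. The tables give 52636 Ensembl identifiers, of which 52489 were found in GENCODE M21 (GRCm38), and 11226 assembled loci. Symbols and positions come from M21, whose build differs from the one in the processing notes, and promoters from RefSeq (GRCm38.p6). Groups and replicate numbers were taken from the titles. The passage 10 library, deposited on another gene list, entered no comparison.

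Recovered reads, FPKM divided by the value of 1 read, were whole within 0.01 for 92.6% to 93.6% of genes with up to 1000 reads. Reads per library are given with the results and cover counting error only, as PCR duplicates cannot be told from molecules.

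Tests used limma 3.58.1 (lmFit, eBayes with trend, R 4.3.3) on log2(FPKM + 1). Genes entered a fit if they averaged 0.5 FPKM or more in its libraries, p-values were adjusted over all of them by Benjamini-Hochberg, and the threshold was 0.05. Fits held the 9 tissue libraries, the 11 LGSC libraries (slope), days 7 and 14, or day 7 with the 9 tissue libraries. A pseudocount of 1 understates changes of low genes. Relations to Fgf10 used exact permutation tests (scipy 1.17.1). Alternatives were a pseudocount of 0.1, no filter, scaling to recovered reads, limma-voom, the replicate block, other sets of libraries, log2 of the culture day and each replicate left out. Adult LG libraries 1 and 2 left out and LGSC libraries numbered 2 left out were added after the data were seen. The fits were tested on simulated data. Same-numbered LGSC libraries deviated together (mean r = 0.46, 0.26 to 0.72 over 15 same-numbered pairs, against -0.22 for other numbers), so the numbers may pair the cultures. The main culture fits held no replicate term, and their p-values and intervals leave this pairing out. The replicate block was run as an alternative.

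The 10 genes and the lists were chosen with earlier results of these data known. Named were all 10, up to 3 called genes of widest difference per list and comparison, Fgfr3, Fgfr4, Fgfrl1, Dusp6, Spred1, Spred2, Il17rd and Etv1, and the 5 genes most like Fgf10 and Fgfr2 over the 7 group means. Some genes that met this rule are not reported here.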

Additional observations from a re-analysis of the deposited data

Results flagged for a closer look

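The passage 10 LGSC library, a single library at day 7 with 25181804 recovered reads, was made on another gene list and normalized separately, and its levels were not compared by a test. With no control library of its kind, 8 of the 10 members were held to lie above what a count of 3 reads allows. These were Etv4 at 37.9 FPKM, Fgfr1 at 19.4 FPKM, Etv5 at 17.6 FPKM, Spry2 at 8.15 FPKM, Fgfr2 at 5.79 FPKM, Spry1 at 3.98 FPKM, Fgf1 at 2.86 FPKM and Fgf7 at 0.0906 FPKM, the last from 7 reads. Fgf10 and Spry4 were listed at 0. In the other 20 libraries Spry1 had a listed value of 0 throughout and Fgfr2 did not exceed 0.80 FPKM. Of 5332 genes with at least 10 FPKM in the passage 10 library, 577 (10.8%) were listed at 0 in all 20 other libraries and 2309 (43.3%) were more than 10 times lower than there in all 20. Whether the passage or the gene list accounts for the levels of Spry1, Fgfr2 and Etv4 cannot be told apart.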

How the results depend on the processing

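Of 656 values of single members under the alternatives, 647 kept their direction where called and their side of the threshold, and 34 of 38 member results did so under all of them. The 9 others were in 4 results. Between E19.5 and E17.5 LG, where 0 members were called, 2 (Spry4 and Etv5, both lower) were called with only the 2 groups in the fit and 2 with adult LG libraries 1 and 2 left out, and leaving out each replicate in turn gave 0 to 2, the 2 without adult replicate 3. Spry2 between day 7 LGSC and adult LG turned from -0.77 to 0.302 when scaled to recovered reads and lost its call with only the 2 groups in the fit (adjusted p = 0.059), and Fgfr1 between day 7 LGSC and E17.5 LG lost its call with a pseudocount of 0.1. Leaving out each replicate gave 6 called members for E17.5 and for E19.5 against adult LG, 6 for day 7 LGSC against E17.5 LG, 6 to 7 for day 7 LGSC against adult LG, and 0 for both culture comparisons. With the replicate number as a block, 6 members were called for each embryonic stage against adult LG, 0 between the stages, 0 in both culture comparisons and 6 for day 7 LGSC against each tissue, so the block changed no call of a member. Tissue libraries of the same number did not deviate together (mean r = -0.01, -0.08 to 0.07). The block was an alternative in tissue and culture alike, as the main fits held no replicate term.

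Counts over all genes moved more. Between E19.5 and E17.5 LG, 323 genes were called, 162 with a pseudocount of 0.1, 170 when scaled to recovered reads, 100 with the block, 2144 with only the 2 groups, 2177 with adult LG libraries 1 and 2 left out, and 50 to 1736 with a replicate left out. The slope called 334 genes, 82 without the filter, 783 with the block, 0 on days 7, 10 and 14 only, and 11 to 384 with a replicate left out. The cause was not tested. The relation of targets to Fgf10 in LGSC and its alternatives gave no value, as Fgf10 had 0 reads in 9 of 11 libraries. At 6434734 to 9258020 reads per library, members under 0.5 FPKM rest on few reads and were tested only without the filter, where 8 members were called for E17.5 against adult LG.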
